A study of Mus musculus with 19 samples.

Results

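The miR-30 family was followed across 19 single-colour Agilent mouse miRNA arrays, each hybridised with total RNA of 1 tissue of 1 mouse. Its members were all array entries whose name carries the stem miR-30a, miR-30b, miR-30c, miR-30d or miR-30e, with any locus number and either arm, which gave 11 of the 1136 miRNAs on the array. These were mmu-miR-30a-5p, mmu-miR-30a-3p, mmu-miR-30b-5p, mmu-miR-30b-3p, mmu-miR-30c-5p, mmu-miR-30c-1-3p, mmu-miR-30c-2-3p, mmu-miR-30d-5p, mmu-miR-30d-3p, mmu-miR-30e-5p and mmu-miR-30e-3p, written below without the species prefix. The family was picked because several of its members, of both arms, leaned higher in high-active than in low-active muscle. The strain differences in soleus and EDL are therefore given as a description with no test, whereas the nucleus accumbens and the comparisons between tissues, which did not enter that choice, were tested.

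The study set the inbred strain C57L/J, called high-active for its voluntary wheel running, beside the inbred strain C3H/HeJ, called low-active, in 3 tissues: the soleus and the extensor digitorum longus (EDL), which are hindlimb muscles, and the nucleus accumbens, a reward region of the forebrain. All mice were male and untreated, and were housed singly with a locked wheel from 8 weeks of age for 1 week. High-active arrays numbered 4 for soleus (mice 223, 224, 225 and 227), 2 for EDL (mice 225 and 227) and 4 for nucleus accumbens (mice 223, 224, 225 and 227). Low-active arrays numbered 2 for soleus (mice 194 and 195), 4 for EDL (mice 194, 195, 196 and 197) and 3 for nucleus accumbens (mice 194, 195 and 197). Each activity class is 1 strain, so activity and all other differences between the strains cannot be told apart. The tissues were as labelled by their defining miRNAs: miR-133a-3p was higher in soleus than in nucleus accumbens by 9.88 and in EDL than in nucleus accumbens by 10.49 on the log2 scale, and the neuronal miR-124-3p did not stand well above background on muscle arrays (0 of 12). The nucleus accumbens arrays were uneven in other lists. The summed signal of 7 epithelial miRNAs there ran from 194 to 21769 in high-active and from 42 to 6211 in low-active mice. That of 6 muscle miRNAs ran from 453 to 595 and from 444 to 2322, and miR-133a-3p was detected on 7 of 7 arrays. The bearing of this on the comparisons with nucleus accumbens was not tested. Between 242 and 392 miRNAs were detected per array. The low-active EDL array of mouse 195 was the dimmest and detected the fewest, and the high-active soleus arrays were dimmer (scaling value 588 to 1001) than the low-active soleus arrays (1206 and 1357), so that the soleus strain differences depend on the scaling.

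A miRNA is cut from a hairpin precursor, and either arm of the hairpin, 5p or 3p, can be loaded into an Argonaute protein, where bases 2 to 8, the seed, select target messages. The miR-30 genes lie in pairs, and their 5p arms share a single seed while the 3p arms do not. In heart muscle miR-30 is known for repressing connective tissue growth factor and for restraining mitochondrial fission, in the brain miR-30a is known as a repressor of Bdnf, and in muscle precursor cells the family is known to favour differentiation. RefSeq mature sequences (GRCm38.p6) were matched for 7 of the 11 members, and are shown with the seed in capitals because the seed separates 3 groups of members that the arrays measured side by side.
miR-30a-5p: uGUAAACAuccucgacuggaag
miR-30c-5p: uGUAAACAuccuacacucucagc
miR-30e-5p: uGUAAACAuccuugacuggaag
miR-30a-3p: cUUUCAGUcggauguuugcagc
miR-30e-3p: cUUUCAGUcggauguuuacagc
miR-30c-1-3p: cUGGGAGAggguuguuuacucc
miR-30c-2-3p: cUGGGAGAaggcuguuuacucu
miR-384-5p: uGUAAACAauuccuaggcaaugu

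The last of these lies outside the family by name but carries the seed of the miR-30 5p arms, and is shown for that reason. The seed GUAAACA was held by 0.238% of the 1679 mature mouse miRNAs in the table, UUUCAGU by 0.119% and UGGGAGA by 0.179%. These shares count only miRNAs with a sequence there, so miR-30b-5p and miR-30d-5p are left out of that of GUAAACA. Arms of miR-30a and miR-30e are nearly identical: counted from the 5′ end, miR-30e-5p differs from miR-30a-5p by C13U, and miR-30e-3p differs from miR-30a-3p by G18A. miR-30c-2-3p differs from miR-30c-1-3p by G9A, U12C and C22U. How far the probes of such neighbours pick up each other's RNA was not tested. In GRCm38.p6, Mir30a (chr1:23272269-23272339) and Mir30c-2 (chr1:23291701-23291784) lie 19361 bases apart. Mir30c-1 (chr4:120769534-120769622) and Mir30e (chr4:120772606-120772697) lie 2983 bases apart, and both overlap the gene Nfyc. Mir30b (chr15:68337415-68337510) and Mir30d (chr15:68341208-68341289) lie 3697 bases apart. The array reports 1 value for miR-30c-5p, whose sequence is the same from Mir30c-1 and Mir30c-2.

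Every value below is a log2 signal, scaled between arrays, of the member's brightest probe. A probe counted as detected when more than 50% of its replicate spots were well above background, and a member when any of its probes was. The family held 29 probes with 10 to 20 spots each, none of them saturated, and the median coefficient of variation over spots was 3.95% to 5.32% for the members detected everywhere. All 5 5p arms, miR-30a-3p and miR-30e-3p were detected on all 19 arrays, miR-30c-2-3p on 18 and miR-30c-1-3p on 17. miR-30b-3p was detected on 5 arrays, 3 of soleus and 2 of EDL, and miR-30d-3p did not stand well above background on a single array (0 of 19). Signals of different probes are not comparable as amounts, so each member is compared only with itself across arrays.

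**Figure D1:**
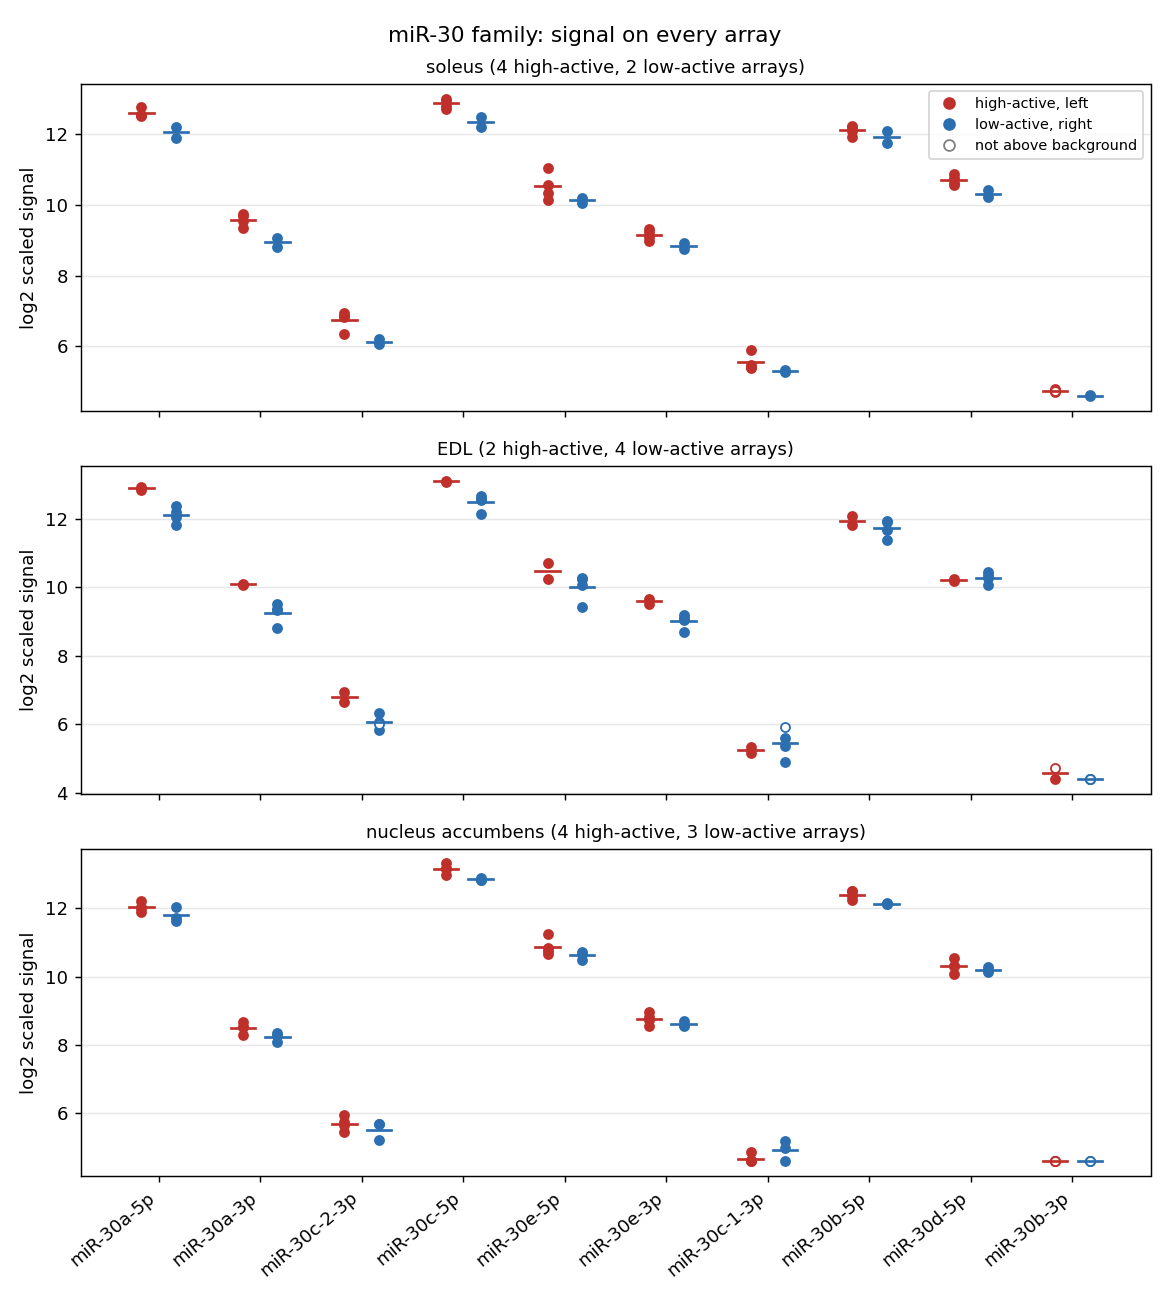
Scaled log2 signal (vertical axis) of each miR-30 member except miR-30d-3p on each array, in a panel per tissue, with high-active arrays left of low-active ones, lines at group means and hollow points where the member was not well above background. Among high-active mice miR-30a-3p sat at 9.35 to 9.75 in soleus and at 10.07 and 10.09 in EDL, above all low-active arrays of the same tissue, whereas in the nucleus accumbens the strains overlapped.

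In soleus, miR-30 members of both arms had higher means in high-active mice once arrays were scaled, and the 10 differences turned negative when arrays were left unscaled. mmu-miR-30a-3p was at 9.35, 9.53, 9.75 and 9.68 in the high-active mice 223, 224, 225 and 227, against 9.07 and 8.82 in the low-active mice 194 and 195. The groups did not overlap, and the mean difference was 0.64 (high-active 9.58 ± 0.18, SD, n = 4; low-active 8.94 ± 0.18, SD, n = 2). Its partner arm from the same hairpin, miR-30a-5p, was at 12.54, 12.54, 12.53 and 12.77 in the high-active mice and at 12.22 and 11.89 in the low-active mice, a difference of 0.54 with no overlap. miR-30c-2-3p, encoded beside miR-30a on chromosome 1, was at 6.36, 6.83, 6.95 and 6.86 in the high-active mice and at 6.06 and 6.20 in the low-active mice, a difference of 0.62. mmu-miR-30c-5p was at 12.82, 12.72, 13.02 and 12.97 in the high-active mice and at 12.51 and 12.22 in the low-active mice, a difference of 0.52. In each of these 4 members the low-active mice were below every high-active mouse.

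The remaining members differed less in soleus. mmu-miR-30d-5p was 0.39 higher (high-active 10.71 ± 0.14, low-active 10.32 ± 0.13), miR-30e-3p 0.32 higher (9.16 ± 0.14 and 8.84 ± 0.12) and miR-30c-1-3p 0.23 higher (5.55 ± 0.23 and 5.31 ± 0.04), all without overlap. miR-30e-5p was at 11.06, 10.35, 10.14 and 10.57 in the high-active mice against 10.21 and 10.06 in the low-active mice, so mouse 225 fell between the low-active mice. miR-30b-5p, at 12.20, 11.92, 12.11 and 12.23 in the high-active mice against 12.08 and 11.76 in the low-active mice, also overlapped. miR-30b-3p differed by 0.13 but lay near the floor and was detected in 1 of 4 high-active and 2 of 2 low-active mice. With every high-active array above every low-active array in 8 of 10 members, the same held for 17.3% of the 342 miRNAs tested in soleus, and a higher high-active mean, seen in 10 of 10 members, was seen in 45.9%. The members' median difference was 0.39, against -0.01 over all miRNAs tested. Because this contrast chose the family, nothing is read from these counts.

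In EDL, the pair of loci on chromosome 1 again held the members that were highest in high-active relative to low-active mice. miR-30a-3p was at 10.07 and 10.09 in the high-active mice 225 and 227, against 9.35, 8.80, 9.51 and 9.34 in the low-active mice 194, 195, 196 and 197, a difference of 0.83 (10.08 ± 0.02, SD, n = 2 and 9.25 ± 0.31, SD, n = 4). miR-30a-5p was at 12.84 and 12.93 in the high-active mice and at 12.37, 11.81, 12.05 and 12.20 in the low-active mice, a difference of 0.77. miR-30c-2-3p was at 6.66 and 6.93 in the high-active mice and at 6.08, 6.01, 6.32 and 5.84 in the low-active mice, a difference of 0.73, and it was detected on 3 of the 4 low-active arrays. In these 3 members, both high-active mice were above every low-active mouse.

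miR-30c-5p was at 13.10 and 13.07 in high-active EDL against 12.57, 12.15, 12.54 and 12.65 in low-active EDL, and differed by 0.61. miR-30e-3p was at 9.66 and 9.51 in high-active EDL against 9.04, 8.68, 9.11 and 9.18 in low-active EDL, and differed by 0.58. Neither overlapped between strains. miR-30e-5p (10.71 and 10.23 in high-active, 10.27, 10.06, 9.43 and 10.24 in low-active) and miR-30b-5p (12.06 and 11.80 in high-active, 11.90, 11.39, 11.68 and 11.93 in low-active) overlapped, with mean differences of 0.47 and 0.21. miR-30d-5p was at 10.22 and 10.19 in high-active EDL, inside the low-active range of 10.06 to 10.43, and had a mean difference of -0.07, beside 0.39 in soleus. miR-30c-1-3p had a mean difference of -0.19 with overlapping groups, and miR-30b-3p of 0.16 with 1 high-active and 1 low-active array detected. High-active arrays stood above all low-active arrays in 5 of 10 members and in 9.09% of the 330 miRNAs tested in EDL, and the high-active mean was higher in 8 of 10 members and in 51.2% of all. Without scaling, 1 of 10 members and 2.73% of all were separate in this way, with a median of 0.57 over the members. The members' median was 0.52, against 0.02 over all miRNAs tested, and again nothing is read from these counts.

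**Figure D2:**
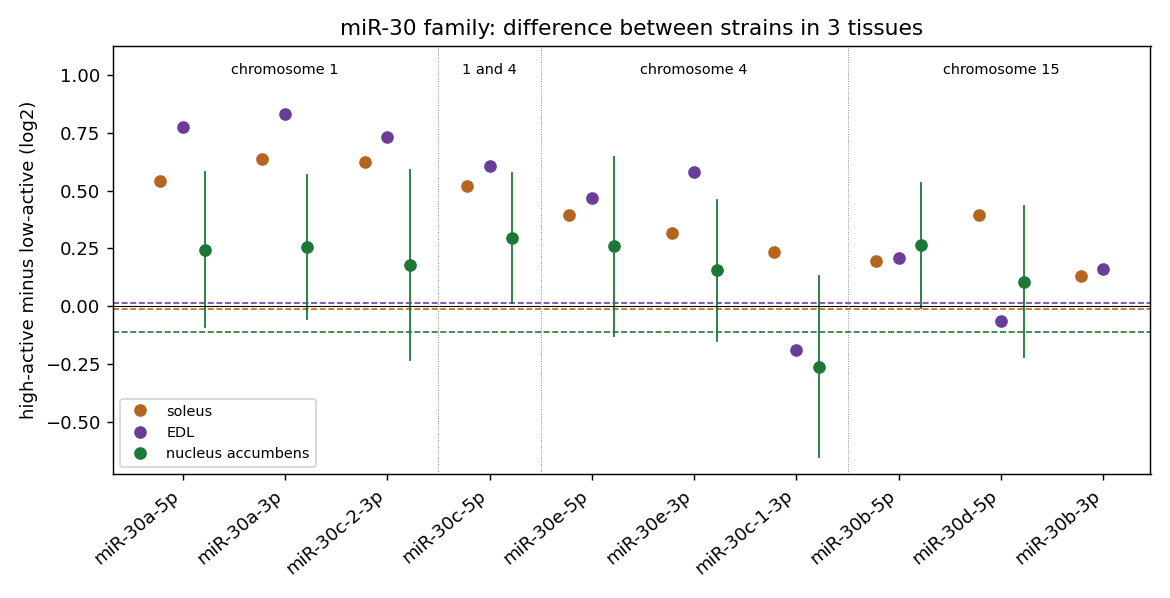
Mean log2 difference, high-active minus low-active, of each member in soleus, EDL and nucleus accumbens, with 95% limma intervals for nucleus accumbens only and a dashed line at each tissue's median over all miRNAs tested. miR-30a-3p, miR-30a-5p and miR-30c-2-3p were at 0.54 to 0.83 in both muscles after scaling (the soleus values turned negative without it) and at 0.18 to 0.26 in the nucleus accumbens.

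Grouped by locus, the members from chromosome 1 (miR-30a-5p, miR-30a-3p and miR-30c-2-3p) had a median difference of 0.62 in soleus and 0.77 in EDL. Those from chromosome 4 (miR-30e-5p, miR-30e-3p and miR-30c-1-3p) had a median of 0.32 in soleus and 0.47 in EDL. Those from chromosome 15 (miR-30b and miR-30d arms) had 0.20 and 0.16. Grouped by arm, the 5p medians were 0.39 in soleus and 0.47 in EDL, and the 3p medians were 0.32 and 0.58. Each median rests on 3 members per locus or 5 per arm, and miR-30c-5p, which comes from 2 loci, is in no locus group. The chromosome 15 median in EDL was the value of miR-30b-3p, near the floor and detected on 2 EDL arrays. Whether the difference follows arm or locus was not tested. For comparison, the median strain difference of the 9 let-7 5p arms was 0.06 in soleus and 0.01 in EDL, that of the 3 miR-29 members -0.06 and 0.32, and that of the 2 miR-26 members 0.10 and 0.13. miR-99b-5p, the miRNA that the study used as its reference, differed by 0.14 in soleus and 0.10 in EDL. Because the muscle contrast chose the family, nothing is read from these comparisons with other miRNAs. In the nucleus accumbens, which did not enter that choice, the medians were 0.24 for miR-30, 0.28 for miR-26, -0.02 for let-7 and -0.03 for miR-29.

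Averaged over members, each arm kept the mice of the strains apart in both muscles after scaling. The mean over the 5 5p arms was 11.85, 11.62, 11.71 and 11.88 in high-active soleus (mice 223, 224, 225 and 227), against 11.49 and 11.23 in low-active soleus (mice 194 and 195). In EDL it was 11.79 and 11.64 in the high-active mice 225 and 227, against 11.47, 11.09, 11.21 and 11.49 in the low-active mice 194, 195, 196 and 197. The mean of miR-30a-3p and miR-30e-3p was 9.22, 9.26, 9.53 and 9.46 in high-active soleus against 9.00 and 8.79 in low-active soleus, and 9.86 and 9.80 in high-active EDL against 9.19, 8.74, 9.31 and 9.26 in low-active EDL. No low-active mouse reached the lowest high-active mouse in either arm or muscle. Of single miRNAs, 17.3% in soleus and 9.09% in EDL were separate in this way. Because the muscle contrast chose the family, nothing is read from this separation, and mice 194, 195, 225 and 227 gave both muscles. In the nucleus accumbens the 5p mean was also separate after scaling (high-active 11.60 to 11.89, low-active 11.48 to 11.59), and the 3p mean was not.

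The low-active mouse 195 was the lowest array for 7 of the 7 evenly detected members in soleus and for 6 of 7 in EDL. Without its soleus array the soleus median was 0.31 and 7 of 10 members did not overlap, beside 19.1% of all miRNAs. Without its EDL array the EDL median was 0.31, miR-30a-3p and miR-30a-5p differed by 0.51 each, miR-30c-5p by 0.33, miR-30e-3p by 0.31 and miR-30d-5p by -0.31, miR-30b-5p turned to -0.073, and 5 members still did not overlap, beside 6.06% of all. On slides that carried both strains, the median difference was 0.56 on slide 1 (1 array each) and 0.28 on slide 2 (2 high-active, 1 low-active) in soleus, and 0.62 on slide 1 and 0.46 on slide 3 (1 array each) in EDL.

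**Figure D3:**
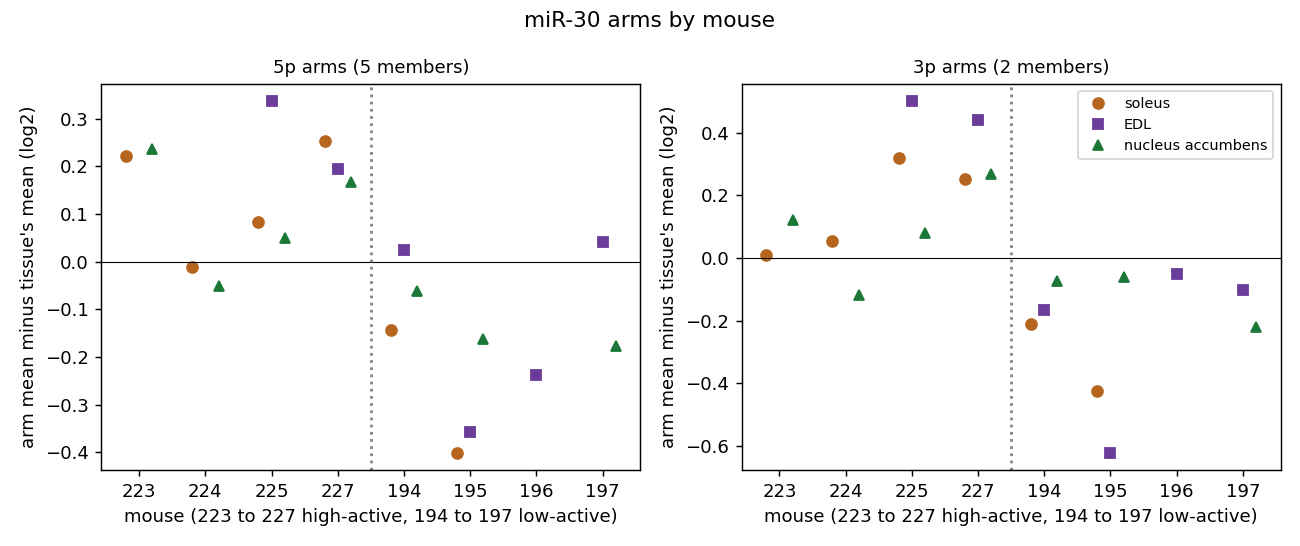
Mean log2 signal of the 5 5p arms and of the 2 evenly detected 3p arms on each array, by mouse, minus the mean of the arrays of that tissue. In both muscles every high-active mouse was above every low-active mouse of the same tissue after scaling, and mouse 195 was lowest. In the nucleus accumbens, before that subtraction, the 5p means were also separate (high-active 11.60 to 11.89, low-active 11.48 to 11.59). The 3p mean of the high-active mouse 224 (8.43) lay there among the low-active mice (8.33 to 8.49).

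Several cell type lists differed between the strains alongside the family. The summed signal of the leukocyte list (3 of 4 members detected, miR-142-5p not) was 1557 to 1770 in high-active soleus against 1287 to 1305 in low-active soleus, and 1596 to 1641 in high-active EDL against 1130 to 1312 in low-active EDL. The vascular list (4 of 4 detected) was 11093 to 12160 in high-active EDL against 8308 to 11062 in low-active EDL, and overlapped in soleus at 11707 to 13935 and 11444 to 12792. Of the 7 epithelial miRNAs only miR-203-3p and miR-205-5p were detected in muscle, summing to 0 to 99 in high-active and 107 to 125 in low-active soleus, and to 0 in high-active and 86 to 266 in low-active EDL. The summed signals of the muscle, neuronal, oligodendrocyte and red cell lists overlapped between strains in both muscles. Of the neuronal list only 1 of 5 members was detected in EDL, and of the oligodendrocyte list only 1 of 2 in either muscle. Single members of these lists, named after their values were seen, moved otherwise than the sums. In soleus 3 of the 6 muscle miRNAs were higher on every high-active array than on every low-active array, miR-208b-3p (1.35), miR-206-3p (0.89) and miR-499-5p (0.55), and the median of the 6 was 0.29, beside 0.39 for the miR-30 members. Of the leukocyte list in soleus only miR-150-5p was separate (0.73), with miR-142-3p at 0.19 and miR-223-3p at -0.0093, whereas in EDL both miR-150-5p (0.36) and miR-223-3p (0.38) were. The part of these lists in the miR-30 differences was not tested, and in bulk RNA fewer cells of a type and less RNA per cell cannot be told apart.

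After each tissue's mean was subtracted, the miRNAs outside the family that followed the 5p mean most closely over the 19 arrays, among 177 detected on all, were miR-322-5p (Pearson r = 0.87), miR-411-5p (0.81), miR-19b-3p (0.76), miR-150-5p (0.76) and miR-126-3p (0.75). Those closest to the 3p mean were miR-150-5p (0.85), miR-126-3p (0.83), miR-322-5p (0.82), miR-299b-5p (0.77) and miR-411-5p (0.77). miR-150-5p belongs to the leukocyte list and miR-126-3p, an endothelial miRNA, to the vascular list. The arrays share mice, slides and scaling, so these coefficients are descriptive.

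In the nucleus accumbens, no miR-30 member passed the test between strains. limma called 0 of the 9 members tested at an adjusted p under 0.05, against 6.91% of 391 miRNAs, and 1 member, miR-30c-5p, had an unadjusted p under 0.05, as did 77 of the 391 miRNAs. miR-30c-5p was at 13.17, 12.97, 13.14 and 13.31 in the high-active mice 223, 224, 225 and 227, against 12.88, 12.84 and 12.84 in the low-active mice 194, 195 and 197. The groups did not overlap, but the difference of 0.30 (95% interval 0.02 to 0.58) had an adjusted p of 0.217. miR-30b-5p was at 12.50, 12.24, 12.36 and 12.49 in the high-active mice and at 12.14, 12.14 and 12.12 in the low-active mice, also without overlap (0.26, 95% interval -0.01 to 0.53, adjusted p = 0.267).

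miR-30a-3p, at 8.52, 8.30, 8.53 and 8.67 in the high-active mice against 8.36, 8.29 and 8.10 in the low-active mice, overlapped (0.26, 95% interval -0.05 to 0.57, adjusted p = 0.363). miR-30a-5p differed by 0.24 (adjusted p = 0.408), miR-30e-5p by 0.26 (0.432), miR-30c-2-3p by 0.18 (0.589), miR-30e-3p by 0.16 (0.507) and miR-30d-5p by 0.11 (0.695). miR-30c-1-3p, near the floor, had a difference of -0.26 (adjusted p = 0.432). A higher high-active mean was seen in 8 of 9 members and in 35.5% of all miRNAs, and complete separation upwards in 2 of 9 members and in 3.84% of all. That count was 7 of 9 (16.9% of all) with the 75th percentile over all probes, and 5 of 9 without scaling (13.6% of all), without the high-active array of mouse 224 (12.2%) or without the low-active array of mouse 194 (5.26%). The members' median was 0.24, against -0.11 over all, and was 0.46 over all probes (0.10 over all miRNAs) and 0.63 without scaling (0.24 over all miRNAs). The within-slide medians were 0.22 on slide 2 (1 array each) and 0.30 on slide 3 (3 high-active, 1 low-active). Whether the strain difference itself differs between muscle and nucleus accumbens was not tested, since the muscle values chose the family.

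Between tissues, with the strains averaged and all 19 arrays in a single limma fit, miR-30a-3p, miR-30c-1-3p, miR-30c-2-3p, miR-30e-3p and miR-30a-5p were higher in both muscles than in the nucleus accumbens, whereas miR-30b-5p, miR-30c-5p and miR-30e-5p did not pass the test in either muscle. When the 75th percentile was taken over all probes, 9 members passed in EDL instead of 5. miR-30b-5p and miR-30c-5p then passed as higher in both muscles. In soleus against nucleus accumbens, 7 of 10 members tested rose and 0 fell, where 78.9% of the 484 miRNAs tested passed, 31.6% as higher and 47.3% as lower. miR-30b-3p, counted among the 7, met the detection filter through muscle arrays alone, and of the 9 others 6 rose. In EDL against nucleus accumbens, 5 of 10 rose and 0 fell, where 75.8% of all passed, 28.7% as higher and 47.1% as lower. The members' median difference was 0.55 for soleus and 0.47 for EDL, against -0.20 over all miRNAs in both.

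miR-30a-3p had a lowest, median and highest value of 9.13, 9.62 and 10.01 in soleus (n = 6), 8.86, 9.66 and 10.27 in EDL (n = 6) and 8.07, 8.34 and 8.54 in nucleus accumbens (n = 7). Neither muscle overlapped with the brain region, and the difference was 1.16 (SE 0.13, 2.23-fold, limma adjusted p = 4.77e-07) for soleus and 1.49 (SE 0.13, 2.82-fold, adjusted p = 2.20e-08) for EDL. All 6 mice that gave soleus and nucleus accumbens, and all 5 that gave EDL and nucleus accumbens, were higher in the muscle. miR-30c-2-3p was at 6.21, 6.74 and 7.20 in soleus, at 5.83, 6.43 and 7.10 in EDL and at 5.19, 5.61 and 5.77 in nucleus accumbens, again without overlap. It was higher by 1.10 (adjusted p = 3.07e-06) in soleus and by 1.02 (adjusted p = 7.49e-06) in EDL, though its calls were lost with the scanner software's total gene signal. Every soleus array stood above every nucleus accumbens array in 6 of 10 members, miR-30b-3p among them, and in 23.3% of the 484 miRNAs tested. For EDL this held in 2 of 10 members and in 20.7% of all.

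Both arms of miR-30a rose in both muscles, whereas of miR-30e only the 3p arm passed the test. Whether the arms of a hairpin differ from each other was not tested. miR-30a-5p rose with its 3p arm but by less, 0.68 in soleus (SE 0.12, adjusted p = 8.82e-05) and 0.78 in EDL (SE 0.12, adjusted p = 2.20e-05), with ranges of 12.20 to 12.85 in soleus, 11.88 to 13.10 in EDL and 11.58 to 12.23 in nucleus accumbens. miR-30e-3p rose by 0.58 in soleus (adjusted p = 7.10e-05) and by 0.80 in EDL (adjusted p = 2.26e-06). miR-30e-5p, from the same hairpin, had differences of -0.14 (95% interval -0.53 to 0.24, adjusted p = 0.468) and -0.31 (95% interval -0.69 to 0.08, adjusted p = 0.130). miR-30c-5p did not pass either (soleus -0.10, 95% interval -0.32 to 0.11; EDL -0.01, 95% interval -0.22 to 0.20), while miR-30c-1-3p rose by 0.91 in soleus (adjusted p = 0.000148) and 0.76 in EDL (adjusted p = 0.000767) from a level near the floor. Without any scaling miR-30a-5p and miR-30e-3p kept their direction in both muscles but not their calls, and miR-30c-1-3p lost its calls with normexp background correction, a doubled floor or the total gene signal (0.079 in soleus, adjusted p = 0.654, and -0.11 in EDL, adjusted p = 0.538, for the last).

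**Figure D4:**
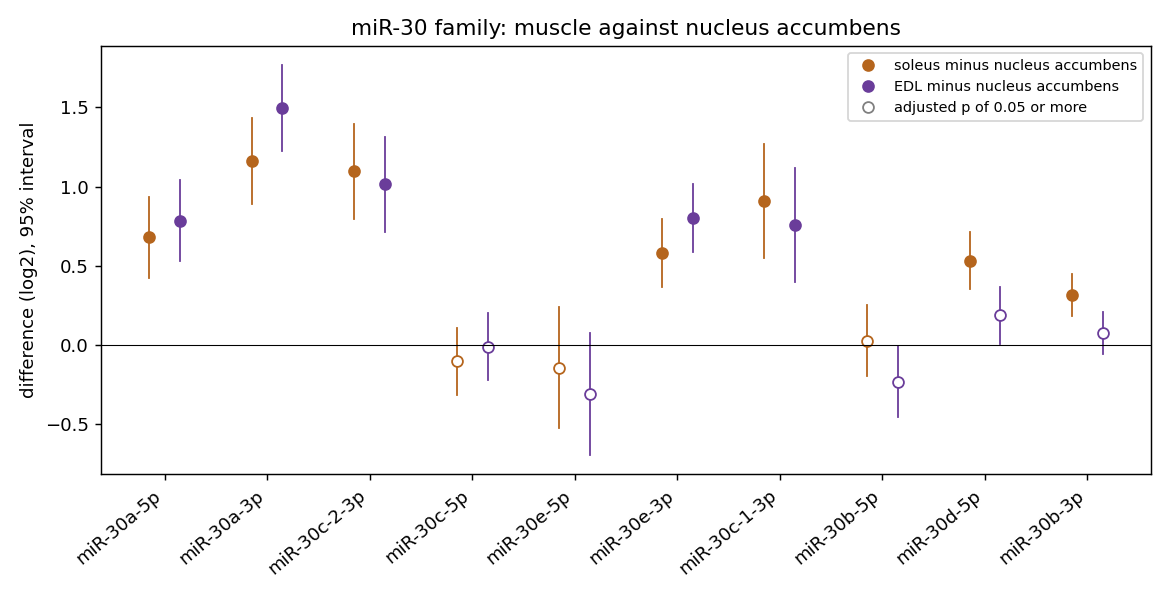
limma log2 difference of each member for soleus and EDL against nucleus accumbens, with 95% intervals and hollow points where the adjusted p was 0.05 or more (miR-30b-3p, kept for testing on muscle arrays alone, is shown as a description). miR-30a-3p lies highest (1.16 in soleus, 1.49 in EDL), and miR-30b-5p, miR-30c-5p and miR-30e-5p lie near 0 or below it. With scaling over all probes, however, miR-30b-5p and miR-30c-5p passed as higher in both muscles.

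The pair from chromosome 15 also parted. miR-30d-5p was at 10.54, 10.77 and 11.03 (lowest, median, highest) in soleus, at 10.12, 10.39 and 10.55 in EDL and at 10.04, 10.14 and 10.39 in nucleus accumbens. It rose by 0.53 in soleus against nucleus accumbens (SE 0.08, adjusted p = 2.99e-05) and by 0.34 in soleus against EDL (SE 0.09, adjusted p = 0.0132, higher in 4 of 4 mice), and did not pass in EDL against nucleus accumbens (0.19, adjusted p = 0.0531). The soleus call was lost without scaling (0.42, adjusted p = 0.143). The EDL value passed with quantile normalization (0.67, adjusted p = 6.08e-07), over all probes (0.84, adjusted p = 0.000107), with the total gene signal (0.32, adjusted p = 0.0271), with the mean over probes (adjusted p = 0.0414) and without the high-active nucleus accumbens array of mouse 223 (adjusted p = 0.0449) or 227 (adjusted p = 0.0341). miR-30b-5p had differences of 0.03 in soleus (adjusted p = 0.815) and -0.23 in EDL (95% interval -0.46 to -0.01, adjusted p = 0.0547) against nucleus accumbens. With mouse as a block the EDL value passed as lower (adjusted p = 0.0434). With scaling over all probes miR-30b-5p passed as higher instead, in soleus (0.58, adjusted p = 0.00957) and in EDL (0.42, adjusted p = 0.0469). miR-30b-3p had a mean 1.22-fold higher in soleus, where 3 of 6 arrays detected it, than in nucleus accumbens, where 0 of 7 did. This is a description with no test because it was kept for testing on the muscle arrays alone. This value sets the soleus mean against the higher of the probe's own signal and the lowest detected signal on each nucleus accumbens array. It is no lower bound, because the soleus mean includes arrays that did not detect the member. The log2 difference was 0 with a doubled floor, 0.13 with normexp background correction and 3.09 with the total gene signal.

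Soleus and EDL differed little. Of 10 members, 2 rose in soleus against EDL, miR-30d-5p and miR-30b-3p (0.24, adjusted p = 0.0191, detected on 3 of 6 soleus and 2 of 6 EDL arrays), and 0 fell, where 16.1% of all miRNAs passed, 7.02% as higher and 9.09% as lower. Both calls crossed the threshold when single arrays were left out: miR-30d-5p stayed at 0.33 without the high-active EDL array of mouse 225 (adjusted p = 0.0552) and was at 0.19 without the low-active EDL array of mouse 195 (adjusted p = 0.0779), and miR-30b-3p was at 0.15 without the low-active soleus array of mouse 195 (adjusted p = 0.216) or the high-active EDL array of mouse 225 (adjusted p = 0.203). Within the 4 mice that gave both muscles neither passed, at 0.44 for miR-30d-5p (adjusted p = 0.261) and 0.23 for miR-30b-3p (adjusted p = 0.662). Without the low-active EDL array of mouse 195, miR-30a-3p (-0.53, adjusted p = 0.00037), miR-30c-5p (-0.27, adjusted p = 0.0146) and miR-30e-3p (-0.40, adjusted p = 0.00143) passed as lower in soleus, and miR-30d-5p passed as higher in EDL than in nucleus accumbens (0.37, adjusted p = 0.000208).

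The difference between 2 members on the same array is free of the scaling factor of that array, and 3 such differences, chosen after the values had been seen, are described here with no test. As a difference of probes it is no ratio of amounts. For miR-30a, 3p minus 5p was -3.05 ± 0.15 in soleus (SD, n = 6), -2.84 ± 0.18 in EDL (SD, n = 6) and -3.54 ± 0.13 in nucleus accumbens (SD, n = 7), with no overlap between either muscle and the brain region. It was higher by 0.49 in soleus, in 6 of 6 mice, and by 0.70 in EDL, in 5 of 5 mice.

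For miR-30e, 3p minus 5p was -1.34 ± 0.37 in soleus, -0.96 ± 0.38 in EDL and -2.06 ± 0.24 in nucleus accumbens. It was higher by 0.72 in soleus (6 of 6 mice), where 1 soleus array, high-active mouse 223 at -1.97, lay inside the nucleus accumbens range, and by 1.10 in EDL (5 of 5 mice). miR-30d-5p minus miR-30b-5p was -1.47 ± 0.14 in soleus, -1.54 ± 0.20 in EDL and -2.02 ± 0.12 in nucleus accumbens, higher by 0.55 in soleus (6 of 6 mice) and by 0.48 in EDL (5 of 5 mice). Soleus minus EDL, the mean difference was -0.21 for miR-30a, lower in 4 of the 4 mice that gave both, -0.38 for miR-30e, lower in 2 of 4, and 0.07 for the chromosome 15 pair, lower in 2 of 4, and the muscles overlapped in each.

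**Figure D5:**
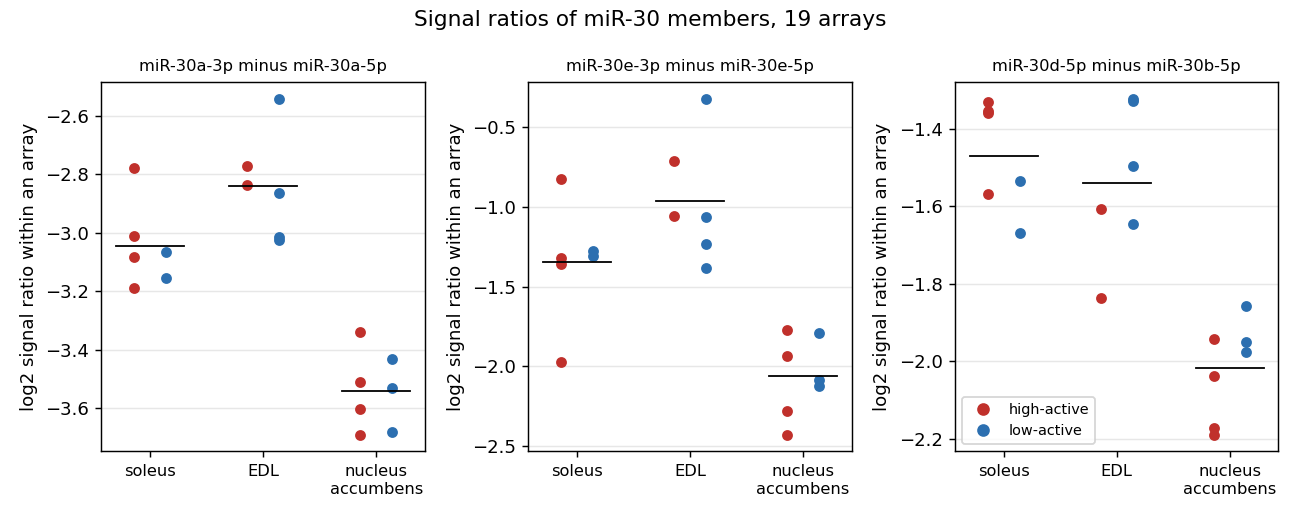
Log2 difference between 2 members on the same array (miR-30a 3p minus 5p, miR-30e 3p minus 5p, miR-30d-5p minus miR-30b-5p) in soleus, EDL and nucleus accumbens, 1 point per array with a line at each tissue's mean. Muscle arrays sit above the nucleus accumbens arrays in each panel, with 1 soleus array of miR-30e (-1.97) inside the nucleus accumbens range.

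Ordered over the 6 groups on the common scale, miR-30a-3p ran from high-active EDL (10.22 ± 0.07) through high-active soleus (9.75 ± 0.20), low-active EDL (9.38 ± 0.38), low-active soleus (9.18 ± 0.06) and high-active nucleus accumbens (8.42 ± 0.13) to low-active nucleus accumbens (8.20 ± 0.15). Neighbours were separate only between high-active EDL and high-active soleus and between low-active soleus and high-active nucleus accumbens. miR-30c-5p had another order, with high-active EDL (13.23 ± 0.03), high-active nucleus accumbens (13.06 ± 0.13) and high-active soleus (13.05 ± 0.16) above low-active nucleus accumbens (12.80 ± 0.10), low-active EDL (12.61 ± 0.28) and low-active soleus (12.59 ± 0.09). For miR-30c-5p the only neighbours that did not overlap were high-active EDL with high-active nucleus accumbens and high-active soleus with low-active nucleus accumbens. For miR-30b-5p and miR-30e-5p, all neighbouring groups overlapped.

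Of the 3 comparison families, let-7 and miR-29 moved otherwise between these tissues, and miR-26 was mixed. Of the 9 let-7 5p arms 0 rose and 6 fell in soleus against nucleus accumbens (median -0.37), and 7 fell in EDL. All 3 miR-29 members fell in both muscles (median -1.71 in soleus). Of the 2 miR-26 members, 1 rose and 1 fell in soleus (median 0.19), and 1 rose and 0 fell in EDL (median 0.30). miR-384-5p, whose seed is that of the miR-30 5p arms, was detected on 0 of 12 muscle arrays and on 7 of 7 nucleus accumbens arrays (9.48 to 9.87), and was at least 30.3-fold lower in soleus and at least 27.7-fold lower in EDL. Between strains in the nucleus accumbens it differed by -0.20 (limma adjusted p = 0.400). On the 3 slides, each of which carried all 3 tissues, the 7 members called for soleus, miR-30b-3p among them, and the 5 called for EDL were higher in the muscle on every slide. Their within-slide differences were 0.26 to 1.32 for soleus, the lowest being that of miR-30b-3p near the floor, and 0.44 to 1.41 for EDL. These members had been called on the same arrays, so the agreement over slides is a description and no separate support.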

How the data were processed

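Total RNA of single mice was labelled with Cy3 and hybridised to Agilent mouse miRNA arrays. The deposited scanner files hold spot intensity, background-subtracted by the authors' scanner software (Feature Extraction 10.7.1.1). A deposited table holds log2 values that the authors normalized. In it every valued row has a median of 0 within each tissue (tolerance 1e-04), and its column medians run from -0.40 to 0.75, so it served only as an alternative within tissues.

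Control and outlier spots (4.04% to 7.03%) were left out, and processed signals were averaged per probe. Arrays were scaled to a common 75th percentile of the probes detected on all arrays compared (594 in nucleus accumbens, 456 in soleus, 417 in EDL, 328 over all 19). Signals were floored at 24.4, 24.1, 21.3 and 23.3 in the same order, and log2 was taken. The brightest probe stood for each miRNA. miRNAs detected on at least 3 arrays in nucleus accumbens, or 2 in the other sets, were kept. limma 3.58.1 (R 4.3.3) fitted 391 miRNAs in nucleus accumbens and 484 in 6 strain by tissue groups, with Benjamini-Hochberg adjustment over all and a threshold of 0.05. The script was tested on simulated data. Precision is limited by how many arrays each group has, and the strain p-values measure the spread between these mice. The tissue fit had no mouse term, so arrays of the same mouse counted as independent. In mice that gave both tissues, limma with mouse as fixed block called 7 members for soleus and 5 for EDL against nucleus accumbens. There miR-30a-3p had a limma adjusted p of 0.000179 in soleus and 0.000479 in EDL, beside 4.77e-07 and 2.20e-08 without the block.

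Members and lists were chosen with earlier results of these data known. Named were all entries of the family, other miRNAs with its seeds, miR-99b-5p, cell type lists, 3 comparison families and, per arm, the 5 miRNAs with the closest pattern. Sequences came from RefSeq. Mouse numbers in the labels name the animal, so the tissues are paired by animal. Deviations from the group means of 15 same-mouse pairs correlated at -0.50 to 0.54 (median 0.06, 6 of 15 over 0.1). Alternatives were other scalings, background corrections, floors, summaries and filters, slide or mouse as a block, and leaving out each array.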

Additional observations from a re-analysis of the deposited data

Results flagged for a closer look

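Of 28 sets of 4 values examined, each a member within a group of 4 arrays, 3 held a value far from the rest by Dixon's test. Chance gives about 1 in 20 for independent sets, but these sets share arrays. In high-active soleus, miR-30a-5p was at 12.77 in mouse 227, against 12.54 in the nearest mouse. miR-30c-1-3p, a member near the floor, was at 5.89 in high-active soleus of mouse 225, against 5.47 in the nearest mouse. It was at 4.87 in high-active nucleus accumbens of the same mouse, against 4.63 in the nearest, with the lowest value of that set at the floor (4.61).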

How the results depend on the processing

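Without scaling, the soleus strain differences turned negative: the members' median was -0.32 where that of all miRNAs was -0.68, with miR-30a-3p at -0.075, miR-30a-5p -0.17, miR-30b-3p -0.42, miR-30b-5p -0.52, miR-30c-1-3p -0.48, miR-30c-2-3p -0.090, miR-30c-5p -0.19, miR-30d-5p -0.32, miR-30e-3p -0.40 and miR-30e-5p -0.32. With the 75th percentile taken over all probes, the median was 0.64 in soleus and 0.73 in EDL, where the median of all miRNAs was 0.18 and 0.21. Within slides the soleus median was 0.56 and 0.28. Leaving out each array gave 0.31 to 0.48 in soleus and 0.31 to 0.64 in EDL. Single members turned in soleus for miR-30b-3p in the deposited table (-0.31) and miR-30b-5p within slide 2 (-0.0066). In EDL, miR-30d-5p turned over all probes and within slide 1 (0.14 each), miR-30b-3p with normexp (-0.013), miR-30c-2-3p with the total gene signal (-0.66), miR-30c-1-3p within slide 3 (0.28) and miR-30b-5p without the low-active EDL array of mouse 195 (-0.073).

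The nucleus accumbens strain test gave 0 members under every alternative run and with each array left out. For soleus against nucleus accumbens, 4 members passed without scaling, with the total gene signal or among miRNAs detected on all arrays (fewer tested), and 2 at 2-fold or more. Leaving out each array gave 7 to 7. With scaling over all probes, miR-30b-5p (0.58, adjusted p = 0.00957) and miR-30c-5p (0.45, adjusted p = 0.0242) also passed as higher in soleus. For EDL against nucleus accumbens, 9 passed over all probes, 3 without scaling or among miRNAs detected on all arrays, 2 at 2-fold or more, and 5 to 7 without each array. For soleus against EDL, 1 passed over all probes, without scaling, without a floor, with a doubled floor, with the mean over probes or among miRNAs detected on all arrays, 0 with normexp, the total gene signal or the 2-fold minimum, and 0 to 4 without each array. Turned members were miR-30c-5p over all probes (0.45 in soleus, 0.64 in EDL) and without the low-active EDL array of mouse 195 (0.19 in EDL, and -0.050 to 0.19 over all arrays left out in turn), miR-30b-5p over all probes (0.42 in EDL), miR-30c-1-3p with the total gene signal (-0.11 in EDL), all against nucleus accumbens, and miR-30b-3p with normexp (-0.087, soleus against EDL). The cause was not tested.

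With mouse as a random block, miR-30b-5p passed as lower in EDL than in nucleus accumbens (-0.23) and no other call changed. With mouse as a fixed block, 0 members passed between soleus and EDL, where 4 mice gave both. Strain groups share no mouse, so no block applied there. The deposited table was not used between tissues.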
